A study of Mus musculus with 1536 samples.

Results

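The genes of the AMPA and kainate receptor subunits, Gria1 to Gria4 and Grik1 to Grik5, were examined in single serotonin neurons of the mouse raphe nuclei. The 9 genes were chosen by name, as the complete AMPA family of 4 genes and the complete kainate family of 5 genes, out of 53263 genes in the table. All 9 had a read in at least 3 cells, and 7 had a mean above 2 CPM (the reads of a gene in a cell, scaled so that all genes of the cell sum to 1000000). Gria3 and Grik3 had lower means. The cells came from C57BL/6J mice aged 40 to 45 days in which Cre, under the control of the serotonin transporter gene Sert (Slc6a4), switched on the red reporter tdTomato of the Ai14 allele. All cells carried both alleles, and there was no treatment and no group without Cre. Cre recombination is permanent, so the reporter also marks a cell that used the Sert gene earlier in life. Single tdTomato-positive cells were sorted into plates and made into Smart-seq2 libraries, which cover whole transcripts and carry no molecular identifiers. The study used animals of both sexes, and the labels do not tie a cell to an animal.

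There were 290 cells on 5 plates from a dissection labelled Principal DR, the principal part of the dorsal raphe (pDR), and 709 cells on 11 plates from a dissection labelled All DR. By the methods of the study the second dissection also held the caudal dorsal raphe and the median raphe. Each plate held cells of a single dissection, so plate and dissection cannot be told apart. A cell had a median of 827283 reads on genes, with a range from 96834 to 2780443. The serotonin genes were read in nearly all cells, with Tph2 and Fev in 999 of 999 cells, Slc18a2 in 998 and Slc6a4 in 997. The study describes the 999 cells as Tph2-positive, so the Tph2 count is no independent check of the label. Markers of astrocytes, microglia and oligodendrocyte precursors had a median of 0 CPM in every group of cells compared below. Summed oligodendrocyte markers had medians from 18.1 to 32.0 CPM, while 5 of the 6 genes had a median of 0. In 2 pDR cells and 7 All DR cells, oligodendrocyte or astrocyte markers reached 1000 CPM or more. Because no animal is named, each dissection counted as 1 sample, no p-value was computed, and the number of plates that showed a direction is given in its place. Plates of the same dissection may share animals. Confidence intervals of shares are exact 95% binomial intervals (Clopper-Pearson) and cover counting error only.

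Glutamate released onto a neuron opens AMPA receptors, which carry most of the fast excitatory current, and kainate receptors, which act at slower synapses, outside synapses and on axon terminals. AMPA receptors are assemblies of the proteins GluA1 to GluA4, encoded by Gria1 to Gria4, and GluA2 largely sets whether calcium passes the channel. Kainate receptors are built from GluK1 to GluK3, encoded by Grik1 to Grik3, which can form channels on their own, and from GluK4 and GluK5, encoded by Grik4 and Grik5, which bind glutamate with high affinity and need a partner from the first group. Serotonin neurons of the raphe receive glutamate input from the cortex, the habenula and other regions.

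The calcium block by GluA2 depends on a codon in the stretch that lines the pore. There the genome encodes glutamine, and the enzyme Adarb1 edits the RNA so that arginine is made. The transcripts of Gria2, Grik1 and Grik2 are known to be edited at this codon. The reference sequence around it is shown because counts of reads per gene cannot tell edited from unedited RNA, and because it shows how much the families share. The codon in capitals stands within 45 bases of coding sequence from the GENCODE M21 transcripts of genome build GRCm38 (mm10), written 5′ to 3′ on the strand of the gene.
Gria1: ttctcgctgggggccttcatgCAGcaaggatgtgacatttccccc
Gria2: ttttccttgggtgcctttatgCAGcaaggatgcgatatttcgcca
Gria3: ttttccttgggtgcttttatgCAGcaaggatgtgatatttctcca
Gria4: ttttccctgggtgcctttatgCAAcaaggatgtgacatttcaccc
Grik1: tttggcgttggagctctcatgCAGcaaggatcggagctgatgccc
Grik2: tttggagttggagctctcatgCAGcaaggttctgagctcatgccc
The codon of Gria2 lies at chr3:80706911-80706913 on the minus strand, in exon 11 of 16. The codon of Gria4 lies at chr9:4464137-4464139 on the minus strand, in exon 12 of 17, and reads CAA, the other codon for glutamine. The codon of Grik1 lies at chr16:87940542-87940544 and that of Grik2 at chr10:49244329-49244331, both on the minus strand. Of the 45 bases, 42 were the same in Gria2 and Gria3, 39 in Gria2 and Gria4, and 41 in Grik1 and Grik2. In these cells the editing enzyme Adarb1 had a mean of 26.7 CPM and a read in 91.4% of cells, Adar had 52.3 CPM and 99.2%, and Adarb2, which lacks known editing activity, had 1.99 CPM and 7.11%.

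Gria2 and Gria4 were read in nearly every serotonin neuron. Gria2 was found in 996 of 999 cells (99.7%, interval 99.1 to 99.9%), with a mean of 203 CPM and plate means of 153 to 269 CPM. Gria4 was found in 994 cells (99.5%, 98.8 to 99.8%), with a mean of 167 CPM and plate means of 123 to 199 CPM. Gria1 was found in 861 cells (86.2%, 83.9 to 88.3%) with a mean of 30.0 CPM. Gria3 was found in 97 cells (9.71%, 7.94 to 11.7%) with a mean of 1.91 CPM. Where Gria3 was read, its median was 16.7 CPM, so it was low in most cells and moderate in a few.

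Of the kainate genes, Grik2 and Grik5 were the most widespread. Grik2 was read in 960 cells (96.1%, 94.7 to 97.2%) with a mean of 41.8 CPM, and its partner gene Grik5 in 900 cells (90.1%, 88.1 to 91.9%) with a mean of 21.2 CPM. Grik4, the other partner gene, was read in 624 cells (62.5%, 59.4 to 65.5%) with a mean of 10.3 CPM. Grik1 was read in 179 cells (17.9%, 15.6 to 20.4%). Its mean of 10.8 CPM was like that of Grik4, while its highest cell had 880.0 CPM against 158 CPM for Grik4. Grik3 was read in 14 cells (1.40%, 0.768 to 2.34%) with a mean of 0.314 CPM.

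**Figure D1:**
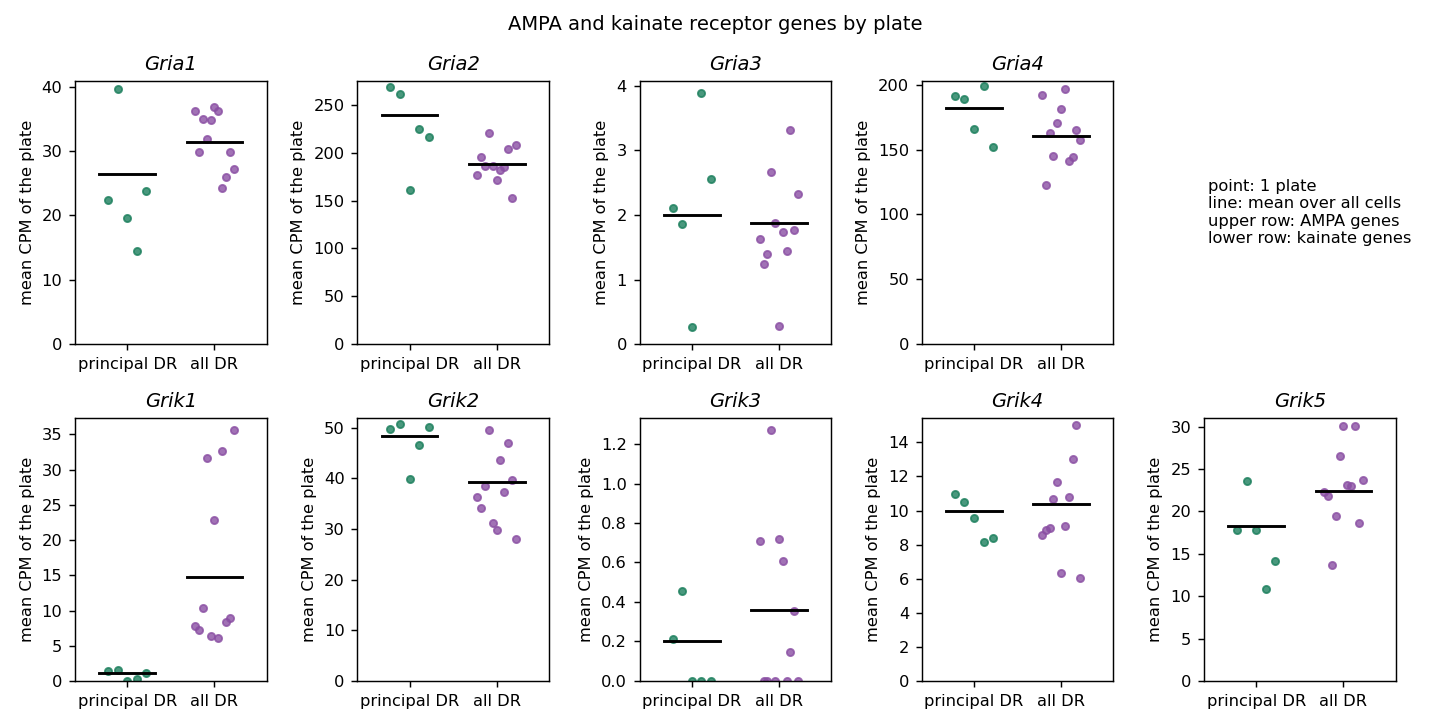
Mean CPM of each of the 9 genes (vertical axes, each from 0) on every plate of the pDR dissection (5 points, green) and of the All DR dissection (11 points, purple), with lines at the means over all cells. The Grik1 plates of the dissections do not overlap (0 to 1.58 CPM against 6.15 to 35.6 CPM), and the plates of the other 8 genes do.

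Levels of different genes can be compared only per length of transcript, so each CPM was divided by the kilobases of exon of the gene. On this scale the order of the AMPA genes reversed at the top, with a mean of 26.4 CPM per kb for Gria4, 13.0 for Gria2, 4.96 for Gria1 and 0.193 for Gria3. Gria4 was the highest AMPA gene in 832 of 998 cells (83.4%, 80.9 to 85.6%), Gria2 in 151 (15.1%), Gria1 in 15 and Gria3 in 0, which allows a share of up to 0.369%. The share of cells with Gria4 highest ran from 66.7 to 92.9% over the plates. Across cells the median share of Gria4 in the summed AMPA level per kb was 58.2%, that of Gria2 29.7% and that of Gria1 9.43%. The exons of Gria2 sum to 15548 bases over its 8 annotated transcripts. With the length of the longest transcript (10371 bases) Gria4 was highest in 73.2% and Gria2 in 25.9% of cells.

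The order of the kainate genes per kb was Grik5 (4.10), Grik2 (3.16), Grik4 (1.72), Grik1 (1.61) and Grik3 (0.0349). Grik5 and Grik2 were close, and no gene led in most cells. Grik5 was highest in 46.9% of the 991 cells with a kainate read, Grik2 in 31.5%, Grik4 in 15.2% and Grik1 in 6.26%. The share with Grik5 highest ran from 30.0 to 70.4% over the plates and that with Grik2 highest from 10.0 to 50.0%, and these ranges overlap.

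The AMPA genes occurred in few combinations. Gria1, Gria2 and Gria4 without Gria3 were read together in 778 cells (77.9%, 75.2 to 80.4%), Gria2 and Gria4 alone in 119 (11.9%), all 4 genes in 80 (8.01%), and Gria2, Gria3 and Gria4 in 17 (1.70%). Gria2 was missing in 3 cells, of which 2 had Gria1 as their single AMPA gene and 1 had no AMPA read. The cell without an AMPA read had no kainate read either, and with 120692 reads it was among the shallow cells. No cell with Gria4 was without Gria2. The shares depended on depth only a little for this family. After each cell was thinned to 250000 reads, which left out 9 shallower cells, the leading combination was found in 76.3% of cells.

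Kainate genes were more mixed. Grik2, Grik4 and Grik5 were read together without Grik1 and Grik3 in 479 cells (47.9%, 44.8 to 51.1%), and Grik2 with Grik5 in 230 (23.0%). Combinations with Grik1 followed, with Grik1, Grik2 and Grik5 in 81 cells (8.11%) and Grik1, Grik2, Grik4 and Grik5 in 71 (7.11%). A read of both kinds of kainate gene, at least 1 of Grik1 to Grik3 and at least 1 of Grik4 and Grik5, was found in 928 cells (92.9%, 91.1 to 94.4%). In 24 cells a partner gene was read without Grik1 to Grik3, and in 8 cells no kainate gene was read. These shares moved with depth, since Grik4 and Grik5 are low, and after thinning the leading combination was found in 37.6% and both kinds in 87.4% of cells.

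**Figure D2:**
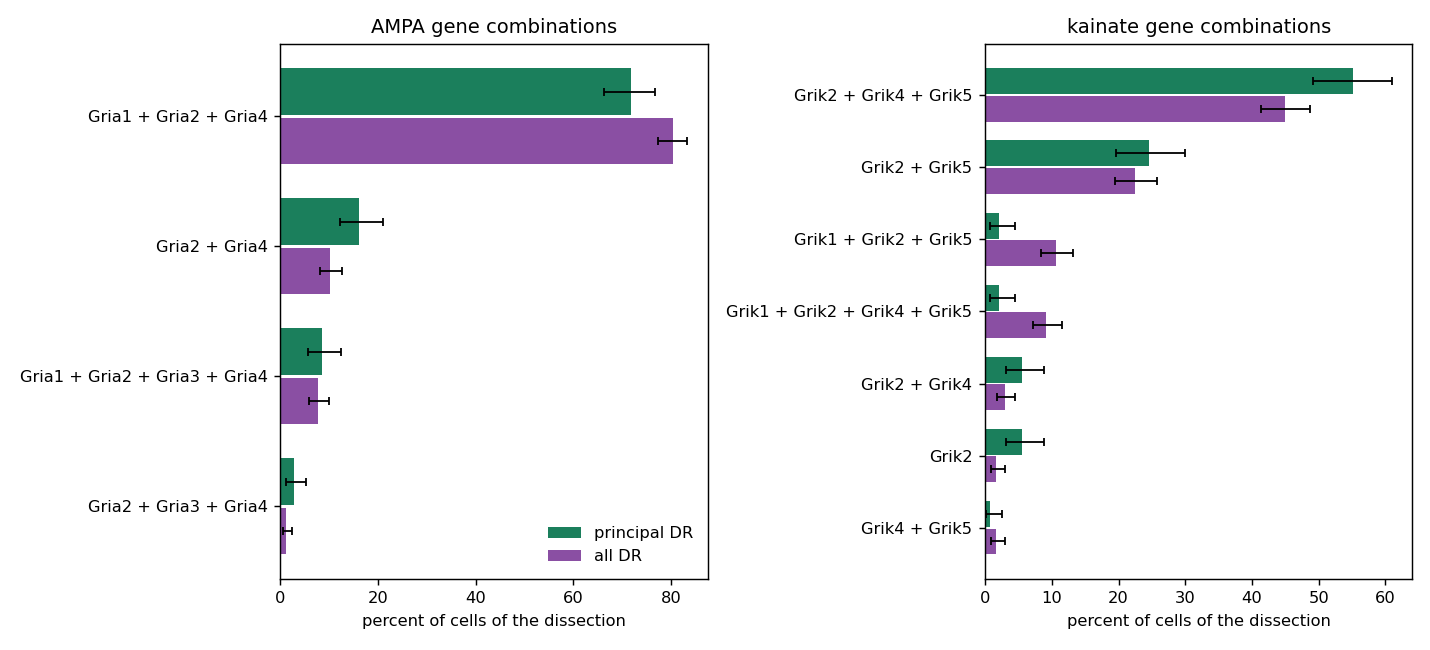
Percent of cells (horizontal axes) with each of the most frequent combinations of AMPA genes (left) and kainate genes (right), by dissection, with a gene counted from 1 read. Bars show the share and lines the exact 95% binomial interval, and the combinations with Grik1 are more frequent in All DR cells (10.6 and 9.17%) than in pDR cells (2.07% each).

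Between the dissections, Grik1 was the member past 2-fold. Its mean was 14.8 CPM in All DR cells and 1.10 CPM in pDR cells, a log2 ratio of 2.92 (computed, like all ratios here, on mean CPM plus 1). The 5 pDR plates had means of 1.40, 1.58, 0, 0.314 and 1.08 CPM, and the 11 All DR plates ran from 6.15 over a median of 8.90 to 35.6 CPM. Every All DR plate was thus above every pDR plate. As a difference of mean log2(CPM+1), which gives less weight to single high cells, the value was 0.86 and below 2-fold. Of the 9 members, 1 passed 2-fold between the dissections, against 2.44% of the 25522 genes with a read in at least 3 cells, and 1 had plate means that did not overlap, against 4.97% of those genes. The median log2 ratio was 0.06 over the members and -0.01 over all these genes. The 11518 genes with a mean above 2 CPM include 7 of the members. Of them, 4.38% passed 2-fold and 9.71% had plate means that did not overlap. Grik1 was read in 23.3% of All DR cells (20.2 to 26.6%) and in 4.83% of pDR cells (2.66 to 7.97%), and after each cell was thinned to 250000 reads in 22.4 and 4.50%.

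The markers Zeb2 and Irx2 were themselves nearly confined to All DR cells, with 147 and 154 positive cells there against 3 and 10 in the pDR. Without all cells that had a read of either marker, Grik1 had a mean of 8.04 CPM in 413 All DR cells and 0.846 CPM in 277 pDR cells, a log2 ratio of 2.29. Its plate means then ran from 0.655 to 39.8 CPM and from 0 to 1.37 CPM, and the dissections overlapped. The share of cells with a read was 15.7 against 3.97%.

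The other 8 members differed less, and their plates overlapped. The lowest ratio was that of Gria2, with 188 CPM in All DR and 239 CPM in pDR cells (log2 -0.34). The pDR plates of Gria2 had means of 269, 261, 161, 225 and 216 CPM, and the All DR plates ran from 153 to 221 CPM. Grik2 was at 39.2 and 48.3 CPM (log2 -0.30). Grik5 was at 22.4 and 18.3 CPM (log2 0.28), and Gria1 at 31.4 and 26.4 CPM (log2 0.24).

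Grik1 reads were concentrated in few cells. In All DR, 19 cells (2.68%) had 100 CPM or more of Grik1, and these held 68.2% of its summed level, while no pDR cell reached this level. The 19 cells came from 9 of the 11 plates. Irx2 was read in 15 of them (78.9%), Gad1 or Gad2 in 12 (63.2%), Slc17a8 in 7 (36.8%) and Zeb2 in 0. Of the other 690 All DR cells, 20.1% had Irx2, 22.0% Gad1 or Gad2, 74.1% Slc17a8 and 21.3% Zeb2. The 19 cells had a mean of 2.25 CPM of Gria1, against 32.2 CPM in the other cells, and of 377 CPM of Gria2, against 183 CPM. These cells were chosen by their Grik1 level, so the values describe them and test nothing.

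Gad1 and Gad2 encode the enzymes that make GABA. They were read in 183 of 290 pDR cells and in 164 of 709 All DR cells, and the members were compared between these cells and the cells without either read in the same dissection. Gria3 was higher in the Gad-positive cells of both dissections. In All DR its mean was 4.93 CPM in positive and 0.946 CPM in negative cells (log2 1.61), with plate means from 1.09 over 4.60 to 11.3 CPM and from 0 over 0.764 to 2.50 CPM, and it was higher on 11 of 11 plates. It was read in 18.3% of positive (12.7 to 25.1%) and 6.24% of negative cells (4.36 to 8.61%), and at equal depth in 16.7 and 5.01%.

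In the pDR the positive cells of the 5 plates had 3.13, 1.91, 0.464, 5.18 and 4.03 CPM of Gria3, and the negative cells 0.154, 1.77, 0, 2.17 and 0 CPM. The positive side was higher on 5 of 5 plates, by a log2 of 0.07 on the second, and over all cells the ratio was 1.05. The call rested on single plates and on the cells compared. Without plate SER12 the ratio was 0.77, without SER40 it was 0.87 and without SER13 it was 1.53. Between 133 cells with Gad as their only marker (1.68 CPM) and the 20 cells with none of the 4 markers (1.97 CPM) the direction turned (log2 -0.15). Cells with Slc17a8 as their only marker had 0.566 CPM (79 cells), and cells with both Gad and Slc17a8 had 4.49 CPM (45 cells, 20.0% with a read).

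Gria4 was also higher in Gad-positive cells, by less than 2-fold. In the pDR the positive cells of the 5 plates had 212, 210.3, 215, 258 and 169.7 CPM and the negative cells 151, 151, 96.5, 121 and 120.1 CPM. The ratio was 0.65, and the positive side was higher on 5 of 5 plates. In All DR it was 0.38 and the positive side was higher on 9 of 11 plates. Gria1 went the other way, with log2 ratios of -0.43 in the pDR (lower on 5 of 5 plates) and -0.32 in All DR (lower on 9 of 11). Gria1 was read in 76.5% of Gad-positive and 88.8% of Gad-negative pDR cells.

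Grik1 had a ratio of 2.26 between Gad-positive and Gad-negative All DR cells, with 39.3 and 7.44 CPM. The positive side was higher on 10 of 11 plates, from 3.19 over 20.0 to 151 CPM against 2.66 over 6.99 to 17.5 CPM. The share of cells with a read was nearly the same, 25.0% (18.6 to 32.3%) and 22.8% (19.3 to 26.5%). The difference lay in the level, which was high in few cells. Of the 19 All DR cells with 100 CPM or more of Grik1, 12 were Gad-positive. Among these, 6 had Irx2 as their only other marker and 3 had Slc17a8 and Irx2. Without plate SER52 the ratio was 1.68, and as a difference of mean log2 values it was 0.47. A single Gad-positive cell had 77749 CPM of oligodendrocyte markers, and without the cells rich in glial markers the ratio was 2.27. In the pDR, where Grik1 was near 0, it was read in 1.64% of Gad-positive and 10.3% of Gad-negative cells. Of the 9 members, 1 passed 2-fold in the pDR (background 2.00% of genes) and 2 in All DR (background 0.889%). The median log2 ratio of the members was 0.08 and 0.29, and that of all genes 0.00 in both.

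**Figure D3:**
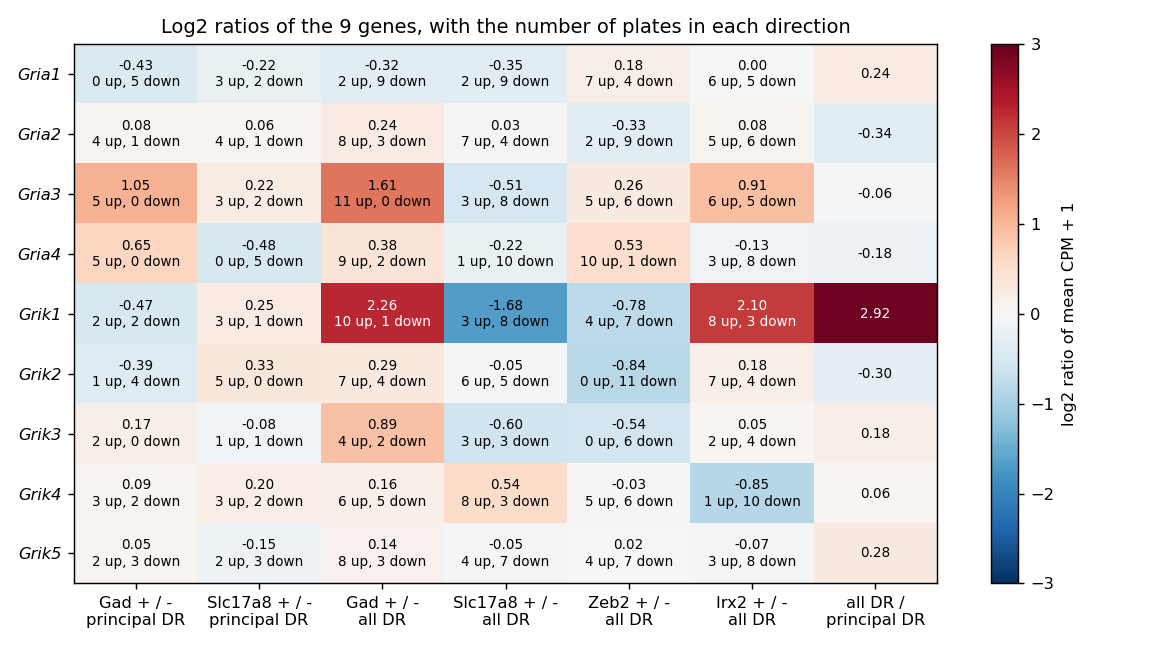
Log2 ratio of mean CPM plus 1 (colour and upper number) for the 9 genes (rows) between marker-positive and marker-negative cells of a dissection and between the dissections (columns), with the number of plates in each direction. The darkest fields are those of Grik1 (2.92 between the dissections, 2.26 for Gad, 2.10 for Irx2 and -1.68 for Slc17a8 in All DR), followed by Gria3 for Gad in All DR (1.61).

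Slc17a8 encodes the vesicular glutamate transporter Vglut3. It was read in 131 pDR cells and 518 All DR cells. In the pDR, 0 of 9 members passed 2-fold (background 1.49%), and in All DR 1 did (background 0.925%). Most Gad-positive pDR cells had no Slc17a8 read, so the comparisons for both markers share most of their division of the pDR cells. Gria4 had 149 CPM in Slc17a8-positive and 209 CPM in negative pDR cells (log2 -0.48, lower on 5 of 5 plates), and 153 and 179 CPM in All DR (log2 -0.22, lower on 10 of 11). Grik2 had 54.5 and 43.3 CPM in the pDR (log2 0.33, higher on 5 of 5). In All DR this was absent, with 38.8 and 40.2 CPM of Grik2 (log2 -0.05, higher on 6 of 11). Grik1 had 8.93 and 30.8 CPM in All DR (log2 -1.68, lower on 8 of 11 plates), and without cells that had another of the 4 markers the ratio was -0.57. Grik4, the partner subunit, was read in 67.2% of positive (63.0 to 71.2%) and 45.5% of negative All DR cells (38.3 to 52.9%), at equal depth in 60.5 and 37.6%. Its means were 11.5 and 7.56 CPM (log2 0.54, higher on 8 of 11 plates). In the pDR Grik4 was read in similar shares, 66.4% of positive and 64.2% of negative cells (log2 ratio of means 0.20, higher on 3 of 5 plates). The median log2 ratio of the members in All DR was -0.22, and that of all genes 0.00.

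Zeb2 and Irx2 encode transcription factors. Their reads were nearly exclusive, with 5 cells of All DR that had both, and they were compared in All DR alone because fewer than 20 pDR cells were positive. Zeb2 shares 1216 exon bases with its antisense gene Zeb2os, and since the reads carry no strand they cannot be told apart there. Between 147 Zeb2-positive and 562 Zeb2-negative cells, 0 of 9 members passed 2-fold, against 4.56% of genes, and 2 passed 1.5-fold, against 10.3%. Both ratios beyond 1.5-fold were below 0, those of Grik2 and Grik1. Grik2 had a mean of 23.7 CPM in positive and 43.2 CPM in negative cells, with plate means from 16.4 over 22.7 to 32.2 CPM and from 31.0 over 40.3 to 52.1 CPM. It was lower on 11 of 11 plates (log2 -0.84, plate range -1.45 to -0.24).

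Zeb2-positive cells had a different balance of Gria2 and Gria4. Gria4 had 212 CPM against 147 CPM (log2 0.53, higher on 10 of 11 plates), and Gria2 had 156 CPM against 197 CPM (log2 -0.33, lower on 9 of 11). The median share of Gria2 in the summed AMPA level per kb was 16.5% in Zeb2-positive and 30.4% in Zeb2-negative cells, lower on 11 of 11 plates. That of Gria4 was 70.8 and 55.1%, higher on 10 of 11 plates. In the pDR the share of Gria2 was 37.2% in Slc17a8-positive and 28.7% in negative cells, higher on 5 of 5 plates. Grik1 had 9.07 and 16.3 CPM in Zeb2-positive and negative cells (log2 -0.78, lower on 7 of 11 plates) while it was read in more of the positive cells, 31.3 against 21.2%. Without plate SER48 its ratio was -1.14, and between cells without any other marker it was 1.39, so its direction was not stable.

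**Figure D4:**
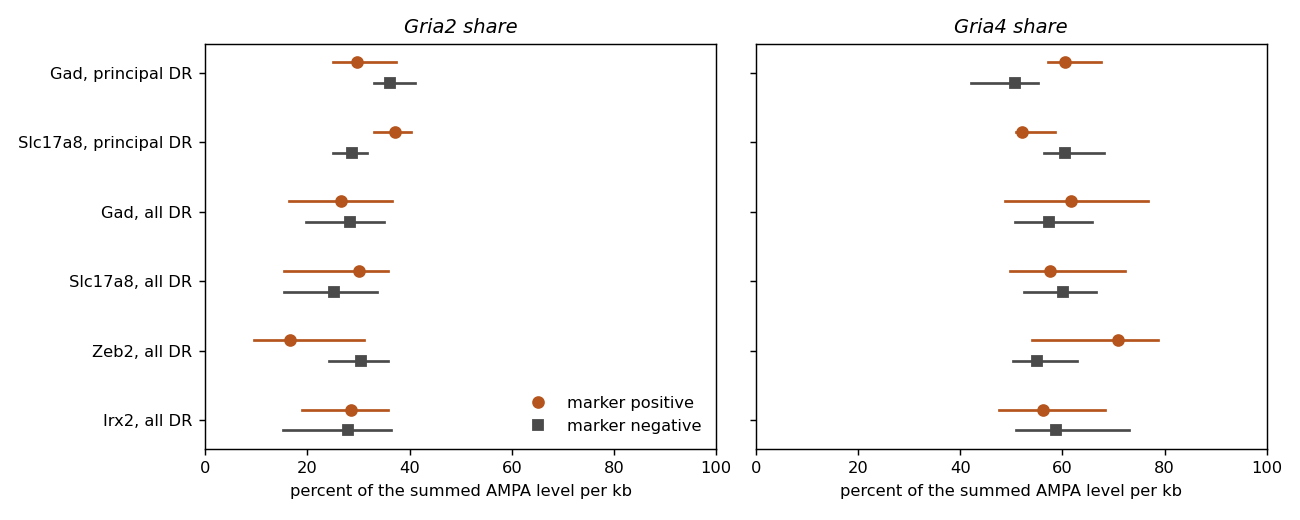
Share of Gria2 (left) and Gria4 (right) in the summed AMPA level per kb (horizontal axes, percent) in marker-positive (circles) and marker-negative cells (squares) of each dissection. Points are medians over cells and lines the range of the plate medians. The Zeb2-positive cells of All DR have the lowest median share of Gria2 (16.5%) and the highest of Gria4 (70.8%).

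Between 154 Irx2-positive and 555 Irx2-negative All DR cells, 1 of 9 members passed 2-fold (background 1.54%). Grik1 had 38.5 CPM in positive and 8.24 CPM in negative cells (log2 2.10), with plate means from 2.69 over 29.7 to 139 CPM and from 1.42 over 4.27 to 35.7 CPM, and was higher on 8 of 11 plates. It was read in 36.4% of positive (28.8 to 44.5%) and 19.6% of negative cells (16.4 to 23.2%), at equal depth in 34.9 and 18.9%. Without plate SER60 the ratio was 1.51 and without SER52 it was 2.87. The level was highest where Irx2 met Gad. The 19 cells with Gad and Irx2 but neither Slc17a8 nor Zeb2 had a mean of 145 CPM of Grik1, and 12 of them (63.2%) had a read. The 13 cells with Gad, Slc17a8 and Irx2 had 81.0 CPM, and the 36 with Irx2 alone 40.3 CPM. The 260 cells with Slc17a8 alone had 2.85 CPM and the 59 without any of the markers 4.72 CPM. The 49 cells with Gad alone had 21.1 CPM, but 5 had a read and 1 cell with 852 CPM held most of the level. Likewise, of the 45 cells with Gad and Slc17a8 alone (28.2 CPM), 5 had a read, and the highest had 880.0 CPM. The 19 cells with Gad and Irx2 but neither Slc17a8 nor Zeb2 had 13.2 CPM of Gria3, read in 9 of them (47.4%).

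Grik4 was lower in Irx2-positive cells, with 5.99 against 11.6 CPM (log2 -0.85). The plate means ran from 1.93 over 5.61 to 11.2 CPM and from 5.63 over 10.7 to 16.5 CPM, and the positive side was lower on 10 of 11 plates. It was read in 36.4% of positive (28.8 to 44.5%) and 68.3% of negative cells (64.2 to 72.1%). Positive cells were shallower, with a median of 785380 against 910859 reads, and at equal depth the shares were 30.9 and 60.8%. Gria1, Gria2 and Grik5 had ratios between -0.07 and 0.08. The median log2 ratio of the members was 0.05 and that of all genes 0.00, while for Zeb2 it was -0.03 and 0.00.

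A lower bound of 1.5-fold was also read in all comparisons. For Gad, 2 members passed it in the pDR (Gria3 and Gria4, background 6.53%) and 3 in All DR (Gria3, Grik1 and Grik3, background 3.02%). For Slc17a8, 0 members passed in the pDR (background 5.70%) and 2 in All DR (Grik1 and Grik3, both lower, background 3.17%). For Irx2, 3 members passed (Grik1 and Gria3 higher and Grik4 lower, background 4.60%). Of these, Gria3 (log2 0.91) was higher on 6 and lower on 5 of 11 plates, so its direction was not stable. Between the dissections Grik1 alone passed (background 8.98%). Grik3 was read in 9 All DR cells, so its ratios rest on single cells.

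**Figure D5:**
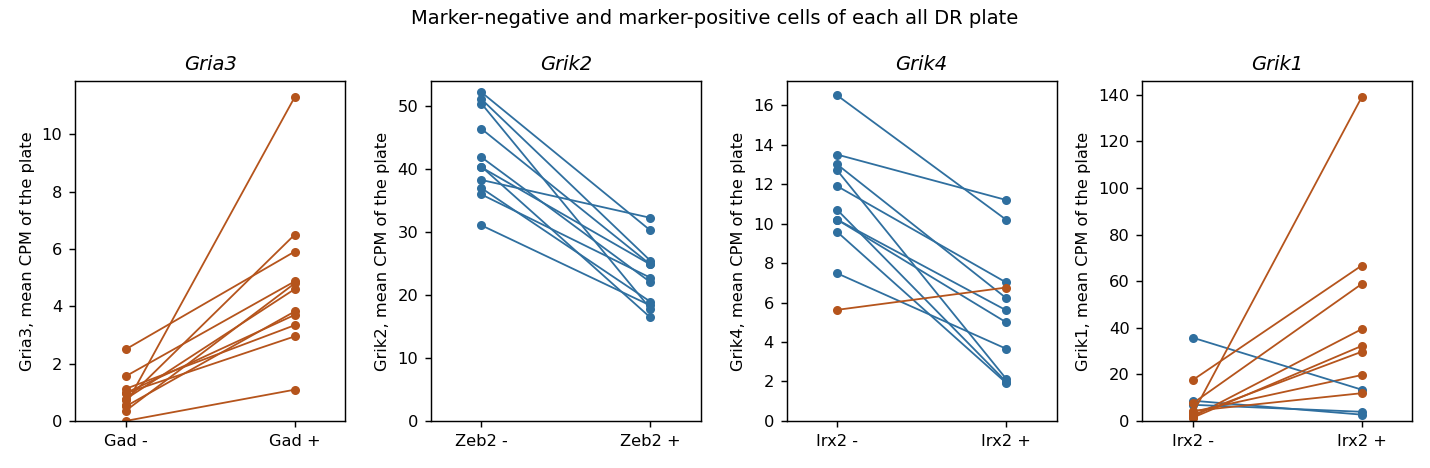
Mean CPM (vertical axes, from 0) of 4 members in marker-negative (left point) and marker-positive cells (right point) of each of the 11 All DR plates, joined by lines that are orange where the positive side is higher and blue where it is lower. Gria3 is higher in Gad-positive cells on 11 plates, Grik2 lower in Zeb2-positive cells on 11, Grik4 lower in Irx2-positive cells on 10, and Grik1 higher in Irx2-positive cells on 8.

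Within plates the correlations between the members were small. Over 999 cells, which share 16 plates and differ in depth, Pearson's r of plate-centred ln(CPM+1) for the 36 pairs ran from -0.14 to 0.24 with a median of 0.03, and 9 pairs reached a size of 0.1. Gria3, Grik1 and Grik3 had a median of 0 reads and Grik4 of 4, and how far low counts limit r was not tested. The highest r was that of Gria2 with Gria4 (0.24, above 0 on 12 of 16 plates). It rested on 5 cells that lacked a read of one or both genes, since without them r was 0.03 over 994 cells. The next were Gria2 with Grik2 (0.16, and 0.12 without the 5 cells), Gria2 with Grik5 (0.14 and 0.10) and Gria3 with Grik1 (0.14 in both). The lowest were Grik1 with Grik4 (-0.14, above 0 on 2 of 15 plates) and Gria1 with Grik1 (-0.13). Detected genes per cell had an r of 0.22 with Gria2 and 0.21 with Grik4, the highest of the members.

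The most alike genes were sought among 11518 genes with a mean above 2 CPM. Gria2 was most like Dpp6, an auxiliary subunit of potassium channels (r = 0.47), the long noncoding RNA Snhg11 (0.42) and Matr3, an RNA-binding protein of the nucleus (0.40), each above 0 on at least 14 of 16 plates. Without the 5 cells these values were 0.27, 0.28 and 0.26. Gria4 was most like Ntrk2, the receptor of the growth factor BDNF (0.37, above 0 on 15 of 16 plates), Mapre2 (0.36, on 12) and Scg2 (0.36, on 10). Without the 5 cells r was 0.32 with Ntrk2, 0.03 with Mapre2 and 0.10 with Scg2, so the last 2 rested on those cells. Gria1 was most like Spock3 (0.32), the synaptic organiser Cbln2 (0.30) and Rcan2 (0.29), each above 0 on at least 14 of 16 plates.

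Gria3 was most like Kctd8, an auxiliary subunit of GABA-B receptors (0.24), and had an r of 0.18 with Gad2. Grik1 was most like Nmbr, the neuromedin B receptor (0.37), the transcription factor Pou3f1 (0.35) and the neurokinin receptor Tacr3 (0.33). Nmbr was read in 5.01% of cells, with r above 0 on 8 of 13 plates. Tacr3 was read in 5.71%, with r above 0 on 11 of 12, so both values rest on few cells. Pou3f1 was read in 33.9% and had an r above 0 on 15 of 15 plates. Grik2 was most like Chn2 (0.29), Rgmb (0.26) and Epha5 (0.24). Grik4 was most like Nbl1 (0.31), the netrin receptor Unc5d (0.29) and the lysophosphatidic acid receptor Lpar1 (0.27), each above 0 on 16 of 16 plates. Grik5 was most like Abhd8 (0.23), Prkar1b (0.22) and Pcdhac2 (0.20). The values for Grik3, from 0.16 to 0.17 with Thsd7b, Nptx1 and Cnr1, rest on 14 cells.

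Genes whose proteins accompany the receptors were read as a second list. It held 19 AMPA auxiliary genes, the kainate auxiliary genes Neto1 and Neto2, and 12 scaffold and trafficking genes. It also held 3 genes of the editing enzyme family, Adar, Adarb1 and Adarb2. Cpt1c (156 CPM), Frrs1l (112 CPM), Cnih2 (108 CPM) and Cacng3 (102 CPM) had the highest means of the AMPA auxiliary genes, and each was read in at least 92.0% of cells. In Gad-positive pDR cells 3 AMPA auxiliary genes were past 2-fold higher (Shisa9, Gsg1l and Syndig1, background 1.22% of genes) and 2 lower (Cacng4 and Cacng5, background 0.776%). Cacng5, a regulator of AMPA receptors of the TARP family, had 6.46 against 53.4 CPM (log2 -2.87), and Gsg1l, an auxiliary subunit that slows recovery of the receptor, had 11.8 against 3.65 CPM (log2 1.46). Shisa9, also an auxiliary subunit, had 37.4 against 14.4 CPM (log2 1.32), and the pentraxin Nptx1, which gathers AMPA receptors at synapses, had 44.3 against 11.7 CPM (log2 1.84). These 4 genes had their direction on 5 of 5 plates. Of the 3 genes of the editing enzyme family, 1 was past 2-fold lower (log2 -1.20). In All DR the same comparison had 1 AMPA auxiliary gene past 2-fold, Syndig1 (3.59 against 0.874 CPM), which was higher on 7 of 11 plates.

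In Slc17a8-positive pDR cells Cacng5 was at 41.2 against 9.40 CPM (log2 2.02) and Gsg1l at 4.58 against 12.3 CPM (log2 -1.25), each in that direction on 5 of 5 plates (background 1.49% in either direction). In Zeb2-positive cells a larger set was lower, with 3 AMPA auxiliary genes (Cacng3, Cacng5 and Syndig1), both kainate auxiliary genes and 2 scaffold and trafficking genes (Nptx1 and Akap5) past 2-fold lower, and 0 genes of the list past 2-fold higher. Of all genes, 2.90% were past 2-fold lower and 1.66% higher in this comparison. Of the genes with a mean above 2 CPM, 5.46% were lower and 2.47% higher. Nptx1 had 3.25 against 23.2 CPM (log2 -2.51), the TARP gene Cacng3 27.4 against 91.7 CPM (log2 -1.71), the kainate receptor partner Neto2 2.12 against 8.31 CPM (log2 -1.58) and the anchoring protein Akap5 6.17 against 15.5 CPM (log2 -1.20). These 4 genes were lower on 11 of 11 plates, as was Grik2. In Slc17a8-positive All DR cells Syndig1 (0.551 against 4.08 CPM) and Neto1 (6.33 against 14.6 CPM) were past 2-fold lower, each lower on 9 of 11 plates (background 0.925% in either direction). In Irx2-positive cells Cacng3 was past 2-fold lower (39.7 against 89.1 CPM, lower on 8 of 11 plates). Adarb2, which lacks known editing activity, was past 2-fold higher (6.23 against 1.55 CPM, higher on 9 of 11). The background was 1.54% in either direction.

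Between the dissections 3 AMPA auxiliary genes (Cacng3, Olfm3 and Syndig1) and Neto2 were past 2-fold lower in All DR, and Adarb2 was past 2-fold higher, with a background of 2.44% in either direction. Neto2 had 7.03 CPM in All DR and 20.6 CPM in pDR cells (log2 -1.43), with plates from 2.99 to 9.52 CPM and from 12.4 to 47.5 CPM that did not overlap. Cacng3 had 78.4 and 158 CPM , with plates from 32.0 to 102 CPM and from 125 to 179 CPM that did not overlap either. The scaffold and trafficking genes had 0 of 12 past 2-fold, but the plates of Pick1, Nsf and Nptx1 did not overlap. Those of Adar did not overlap either. Plate means did not overlap for 4.97% of all genes and for 9.71% of those with a mean above 2 CPM.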

How the data were processed

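The authors sorted single tdTomato-positive cells, made Smart-seq2 libraries, aligned the reads to mm10 with STAR 2.6.1a, counted reads per gene with HTSeq 0.11.2 and removed genes of the Y chromosome, by the methods and the submitters' processing notes. The annotation version is not given in the sources used here. The deposited values are CPM, scaled by the authors so that the genes of a cell sum to 1000000. Of the values above 0, 100.0% were whole multiples of 1 read within 0.001, so reads were recovered. A count model was not run, since each dissection counted as 1 sample. Of 1536 labelled cells, 999 were in the table and the other 537 were not analysed here. Doublets were not called, and cells were not filtered further.

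A gene was counted as read from 1 read. Ratios are log2 of mean CPM plus 1, given where both sides had at least 20 cells, and per plate with at least 3 cells on each side. Unless stated, background shares are over the 25522 genes with a read in at least 3 cells, and 2-fold in either direction was used to call a gene. Over the 11518 genes with a mean above 2 CPM the 2-fold shares were higher. They were 3.04% (pDR) and 1.07% (All DR) for Gad, 2.31 and 1.30% for Slc17a8, 7.93% for Zeb2 and 2.57% for Irx2. The 1.5-fold shares over these genes ran from 3.77% (Gad in All DR) to 15.7% (Zeb2). Lengths, coordinates and sequences were taken from GENCODE M21. Reads of the members are shared only with small RNA genes on the same strand, by 19 to 111 bases of exon. Named were all members, the markers, at most 4 genes of the accompanying list per comparison with the highest ratio past 2-fold and a single direction over the plates, and the 3 most like genes of each member, of which 1 is not reported here. Accompanying genes outside this rule, and those named between the dissections, were chosen after their values were seen. The members, markers and lists were chosen with earlier results of these data known. The procedure was tested on simulated data. Python 3.11.15, NumPy 2.4.6, pandas 2.3.3 and SciPy 1.17.1 were used.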

Additional observations from a re-analysis of the deposited data

How the results depend on the processing

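Settings were changed singly. Of the log2 ratios of single members, Gria3 in Gad-positive pDR cells reversed to -0.15 without cells that had another marker, and the other called ratios kept their sign. The number of members past 2-fold was 1 for Gad in the pDR and became 0 with thinning to 250000 reads, marker-positive cells from 10 CPM, a pseudocount of 10 CPM, a difference of mean log2 values or genes above 2 CPM, and 2 at 1.5-fold. For Gad in All DR it was 2 and became 1 with the pseudocount of 10 or genes above 2 CPM and 0 with mean log2 values. For Slc17a8 it became 2 in the pDR and 0 in All DR without cells with another marker, and in All DR 2 with a pseudocount of 0.1 CPM or at 1.5-fold and 0 with mean log2 values. For Zeb2 it was 1 without cells with another marker, with the pseudocount of 0.1 or with mean log2 values, and 2 at 1.5-fold. For Irx2 it was 3 with marker-positive cells from 10 CPM or at 1.5-fold, and 2 without cells with another marker, with the pseudocount of 0.1 or with mean log2 values. Between the dissections it was 0 with mean log2 values, where Grik1 had 0.86. Leaving out a plate gave 0 to 1 for Gad in the pDR, 2 to 3 for Gad in All DR, 0 to 1 for Zeb2 and 1 to 2 for Irx2. For Gad in the pDR it was 0 without SER40, while without SER12 Grik1 (-1.18) took the place of Gria3. The added member for Gad in All DR without SER57 was Grik3, that for Zeb2 without SER48 was Grik1, and that for Irx2 without SER55, SER57 or SER64 was Gria3.

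The share of cells with Grik2, Grik4 and Grik5 was 34.1% in the pDR and 31.7% in All DR from 5 reads, 21.4 and 20.2% from 10 CPM, and 42.6 and 35.5% after thinning. That of Gria1, Gria2 and Gria4 in All DR was 76.4% from 5 reads and 71.9% from 10 CPM. Gria4 was highest per kb in 70.7% of pDR and 74.3% of All DR cells with the longest transcript. Leaving out a plate kept these shares within 67.3 to 73.5% and 80.2 to 80.7% for the AMPA combination, 51.8 to 57.1% and 43.7 to 46.0% for the kainate combination, and 83.6 to 86.3% and 81.8 to 84.7% for Gria4. For Gria2 with Gria4, r was 0.19 to 0.26 without a plate and 0.00 by ranks (Spearman), and 0.03 without the 5 cells lacking either gene, an alternative chosen after seeing the data. Leaving out cells rich in glial markers, chosen likewise, changed no count of members. No paired analysis was possible because the dissections share no replicate numbers and no plates, and no result comes from a test. Marker-positive and marker-negative cells were compared within each plate, as values and counts of plates.

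Depth limits the shares of cells with a read. At 250000 reads Grik4 was read in 54.6%, Grik5 in 84.5% and Gria1 in 82.9% of cells, against 62.5, 90.1 and 86.2% at full depth, while Grik1 (17.2 against 17.9%) and Grik3 (1.41 against 1.40%) moved little.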
